A study of Mus musculus with 30 samples.

Results

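The comparison described here is that of Nr6a1-/- with wildtype cells at d2, the last stage before Wnt activation, in 6 of the 30 libraries of the study, 3 per genotype. Members were chosen by their labels: mouse Bruce4 embryonic stem cells (ESCs), wildtype or Nr6a1-/-, given FGF2 for 48 h in N2B27, a serum-free medium, and not yet exposed to CHIR99021, the Wnt pathway agonist that later drives the cells towards neuromesodermal progenitors (NMPs). No Gdf11 had been added. The mutant cells were 1 CRISPR/Cas9 clone with a deletion in each Nr6a1 allele that takes out the DNA-binding domain, and the wildtype cells were the parental line, so anything else that differs between that clone and the line is part of the comparison and cannot be told apart from the loss of Nr6a1. ESCs had been kept on mouse embryo fibroblast feeders and depleted of them before differentiation. Of 12149 genes tested, 655 lie on chromosome 8, 11372 on other chromosomes and 122 could not be placed. Chromosome 8 genes were described apart from the rest because their lowering in the clone was already known when the comparison was set up.

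Nr6a1 (also called GCNF) is an orphan nuclear receptor that binds DNA at the site TCAAGGTCA, in particular at direct repeats of AGGTCA with no gap, and acts mostly as a repressor. Its best known target is Pou5f1, the gene for the pluripotency factor Oct4, which it helps to silence as ESCs differentiate. After FGF2 alone, ESCs leave the naive state and take on the character of the early postimplantation epiblast, from which neural tissue, mesoderm and gut endoderm arise. Cultures at this point often hold some extraembryonic endoderm-like cells, which secrete the laminins and type IV collagens of basement membranes.

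The 6 libraries held 1997344 to 3039826 counts. A gene with no count in a library could have been missed up to 0.987 to 1.5 CPM (a gene's counts scaled to a fixed library total), the value of 3 counts, and this limit covers counting error only. All levels below are CPM after TMM scaling, in the order of replicates 1, 2 and 3, and counts come from 3′ ends, so a level is not divided by gene length. A gene was called when its edgeR quasi-likelihood test gave a Benjamini-Hochberg adjusted p-value (FDR) below 0.05 over all genes tested. Nr6a1 itself gave 83.5, 87.1 and 86.4 CPM in wildtype and 88, 95.9 and 101 CPM in Nr6a1-/- libraries (log2 fold change 0.15, SE 0.122, FDR 0.597). The 3′ reads lie outside the deleted part, so this level checks neither the deletion nor the label.

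The labelled stage was checked against its markers. The epiblast genes Dnmt3b (1690, 1763 and 1711 CPM in wildtype), Pou3f1 (342, 323 and 398 CPM) and Otx2 (55.1, 44.6 and 51.6 CPM) were counted in every library, as was Fgf5, whose level ran from 27.5 to 63 CPM. Genes of the primitive streak and of NMPs, which Wnt activation induces, summed to 42.3 to 51 CPM over 20 genes in wildtype and 34.4 to 35.3 CPM in Nr6a1-/- libraries. T, the gene for Brachyury, stood between 2.35 and 5.84 CPM. Both genotypes therefore carried the markers of the stage before Wnt activation. Transcripts of 4 Y-linked genes (Ddx3y, Eif2s3y, Kdm5d and Uty), none abundant enough to be tested, summed to 4.78 to 6.88 CPM in wildtype and 0.749 to 1.41 CPM in Nr6a1-/- libraries. The groups did not overlap in this sum.

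Between genotypes 494 genes were called, 4.07% of those tested. Of these 164 were higher (1.35%) and 330 lower (2.72%) in Nr6a1-/- cells. On chromosome 8, 151 genes were called and all 151 were lower, 23.1% of the chromosome's tested genes, and they made up 45.8% of all lower calls. No chromosome 8 gene was called higher by edgeR, while 10 rose at an unadjusted p below 0.05, and by DESeq2 0 were higher and 124 lower. Off chromosome 8, 343 of 11494 genes, unplaced ones included, were called (2.98%), 164 higher and 179 lower. The shares of all genes set beside the lists below include chromosome 8. Off it, all mutant libraries lay below all wildtype libraries in 8.67% of genes and above them in 11%. Changes of more than 1 log2 unit were seen in 48 higher and 75 lower genes off the chromosome, and in 13 lower genes on it. The total fell to 299 without wildtype replicate 3, to 313 without Nr6a1-/- replicate 1 and to 311 without Nr6a1-/- replicate 2. Off chromosome 8 it was 195, 211 and 215 without these libraries in turn, and 554 when the d2 libraries were fitted alone, and on chromosome 8 it was 96 without Nr6a1-/- replicate 2.

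**Figure D1:**
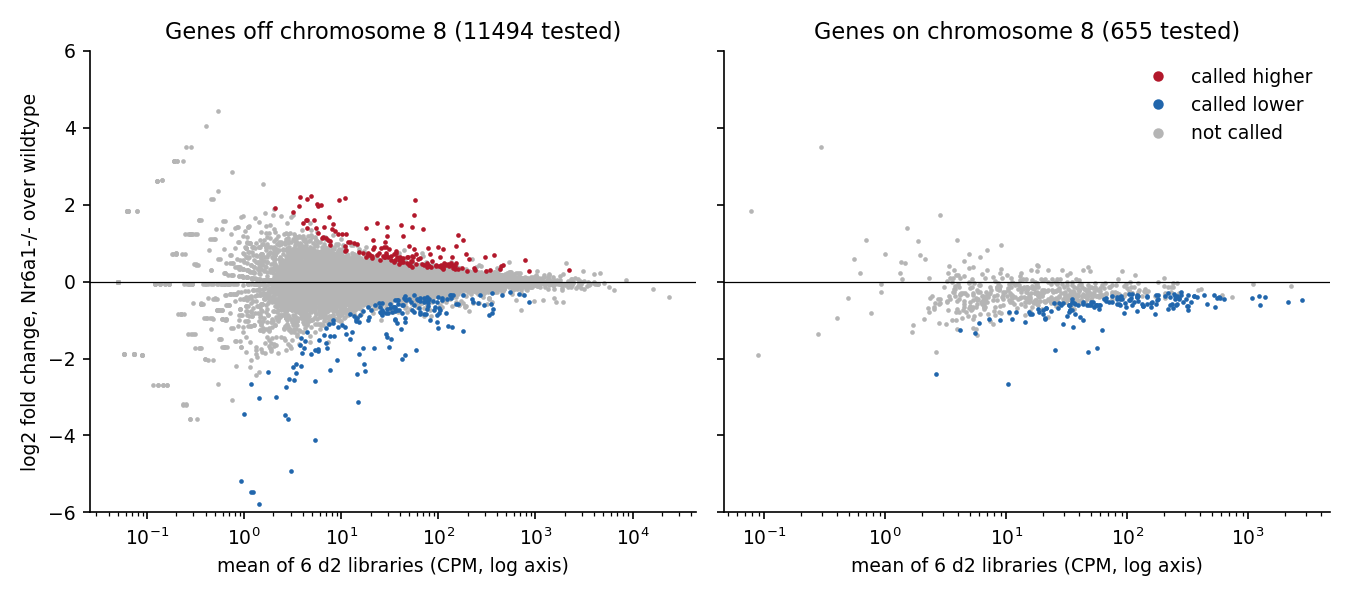
Log2 fold change of Nr6a1-/- over wildtype at d2 (vertical axis) against the mean level of each gene over the 6 d2 libraries in CPM (horizontal log axis), for those off chromosome 8 (left) and on it (right). Points are genes, in red where called higher, blue where called lower and grey where not called. Of the 655 chromosome 8 genes 88.7% lie below 0, with a median below 0 at every level, whereas the other genes are centred on 0.

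Chromosome 8 was lower as a whole in Nr6a1-/- cells. The median log2 fold change of its 655 genes was -0.375, which is 0.771 times the wildtype level, and 88.7% of the genes were below 0. On the 18 other autosomes medians ran from -0.027 to 0.0537, with 41.5% to 54.9% of genes below 0. Each mutant library showed the same shift: the median over chromosome 8 genes relative to the wildtype mean was -0.386, -0.377 and -0.361 on the log2 scale (SD 0.0129). The chromosome took 5.52%, 5.38% and 5.4% of all counts in wildtype libraries and 4.26%, 4.32% and 4.21% in Nr6a1-/- libraries. The shares did not overlap (5.43% ± 0.0752 against 4.26% ± 0.0546, SD, n = 3 each), and no test is given because this lowering was known when the chromosome was set apart. Whether this is a low chromosome in the clone or a high one in the wildtype cells cannot be told apart here.

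The lowering ran from end to end of the chromosome. In 12 intervals of 10 Mb with at least 20 tested genes, medians lay between -0.439 and -0.218 and 80% to 96% of genes were below 0, and the interval with fewer genes (50 to 60 Mb, 12 genes) had a median of -0.458. Elsewhere in the genome 202 such intervals had medians from -0.277 to 0.158, and 1 of them, chromosome 4 from 80 to 90 Mb, reached the range of chromosome 8. The median was much the same at each level. Among chromosome 8 genes below 10 CPM the median was -0.374, from 10 to 50 CPM -0.379, from 50 to 200 CPM -0.366, and above 200 CPM -0.405. The share of genes called rose with level: 3.12%, 16.6%, 45.7% and 69.5% of genes in these 4 ranges, against 1.83%, 3.03%, 4.93% and 3.03% off the chromosome. In 318 of the 655 genes (48.5%) all 3 mutant libraries were below all 3 wildtype libraries, which was so in 10.8% of all genes tested. All 3 were above in 9 chromosome 8 genes, against 10.5% of all genes.

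**Figure D2:**
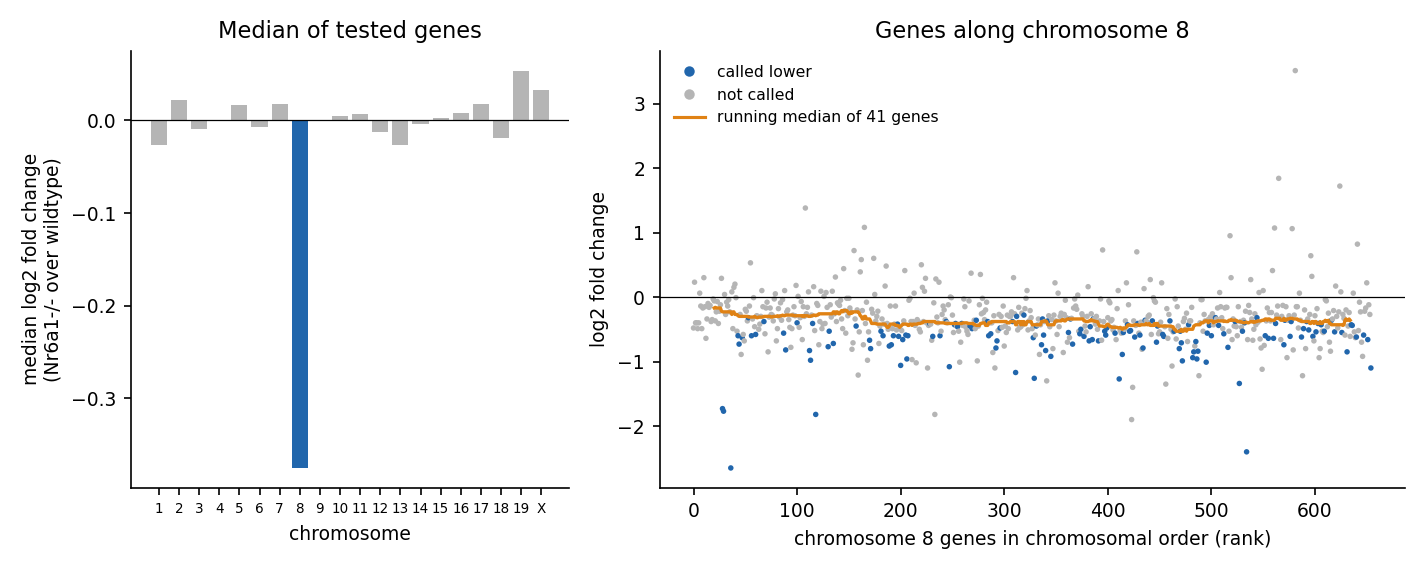
Left, median log2 fold change of the tested genes of each chromosome (bars, from 0); right, log2 fold change of each tested chromosome 8 gene in its order along the chromosome, in blue where called lower and grey where not called, with the running median of 41 genes in orange. Chromosome 8 stands at -0.375 while the other autosomes lie between -0.027 and 0.0537, and the running median stays below 0 along its whole length.

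Of the most abundant chromosome 8 genes called, 5 are given here. They fell by 0.38 to 0.60 on the log2 scale, beside a median of -0.375 over the chromosome. Rpl13, a ribosomal protein gene, had 2675, 2465 and 2463 CPM in wildtype and 1723, 1773 and 1778 CPM in Nr6a1-/- libraries (log2 fold change -0.53, SE 0.0833, FDR 4.75e-05). Cox4i1, a subunit of cytochrome c oxidase, stood at 1450, 1383 and 1358 against 1092, 1110 and 1023 CPM (log2 fold change -0.38, FDR 0.00393). Eif4ebp1, an inhibitor of cap-dependent translation, fell by 0.41, Hmgb2, a chromatin protein, by 0.60, and the metallothionein Mt2 by 0.43 on the log2 scale. The groups did not overlap for any of these 5 genes. Mt2 lost its call without any of wildtype replicates 1 and 3 and Nr6a1-/- replicates 1 and 3 (log2 fold change -0.42 to -0.39, FDR 0.0818 to 0.0998). Ribosomal protein genes and Hmgb2 have processed copies elsewhere in the genome, so their read assignment is uncertain.

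Some chromosome 8 genes departed from the change shared by the chromosome as a whole. To find them, chromosome 8 genes were scaled on the counts of their own chromosome, and 326 genes of all 12149 (2.68%) were then called, 26 of them on chromosome 8. Relative to the chromosome 11 genes were lower and 15 higher. The number was 12 without wildtype replicate 3, 15 without Nr6a1-/- replicate 1 and 13 without Nr6a1-/- replicate 2. Sox1, an early neural transcription factor (chr8:12395295-12400126), had the largest fall, from 14.4, 15.9 and 23.1 CPM to 2.82, 3 and 2.66 CPM. Its log2 fold change was -2.65 (SE 0.324, FDR 7.41e-07), and -2.30 (SE 0.33, FDR 1.79e-05) relative to the chromosome. Col4a1 and Col4a2, the neighbouring genes for the chains of basement membrane type IV collagen (chr8:11198423-11312826 and chr8:11312805-11449287), fell by 1.73 (SE 0.15) and 1.77 (SE 0.22) on the log2 scale, and by 1.37 and 1.41 relative to the chromosome. Col4a1 gave 93.6, 83.4 and 83.6 CPM in wildtype and 25.9, 24.7 and 27.7 CPM in Nr6a1-/- libraries. The 2 collagen genes overlap by a few bases at their 5′ ends on opposite strands, which 3′ reads do not cover.

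Gab1, an adaptor of receptor tyrosine kinases that links them to PI3K and ERK, stood at 77.4, 92.9 and 93.9 CPM in wildtype and 37.2, 36.7 and 36.8 CPM in Nr6a1-/- libraries (log2 fold change -1.26, SE 0.16, FDR 1.11e-06; -0.90 relative to the chromosome). Hmox1, the haem-degrading enzyme induced by oxidative stress, fell from 38.9, 50.5 and 58.2 to 19.8, 20.6 and 25.4 CPM (log2 fold change -1.17, SE 0.195, FDR 0.000125; -0.81 relative to the chromosome). Both remained outside the wildtype range in all 3 libraries. Smaller falls relative to the chromosome were called for Prmt7, Syce2, Vps35 and Slc25a4 (-0.48 to -0.31). Among the 15 genes that were high for their chromosome, none was called higher in the fit to all genes. Acta1, skeletal muscle actin, had the largest difference (0.875, 2.12 and 1.03 CPM against 5.65, 3.37 and 4.17 CPM; 2.07 relative to the chromosome, FDR 0.0174), and it was 1.72 with an FDR of 0.0524 in the fit to all genes. Others were Marveld3 (1.30), Cpe (0.77), Fat1 (0.75) and Dusp4 (0.67), an ERK phosphatase. Several of the 15, such as Rps12-ps9, Gm10073 and Cks1brt, are copies of genes on other chromosomes and their reads may come from there.

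**Figure D3:**
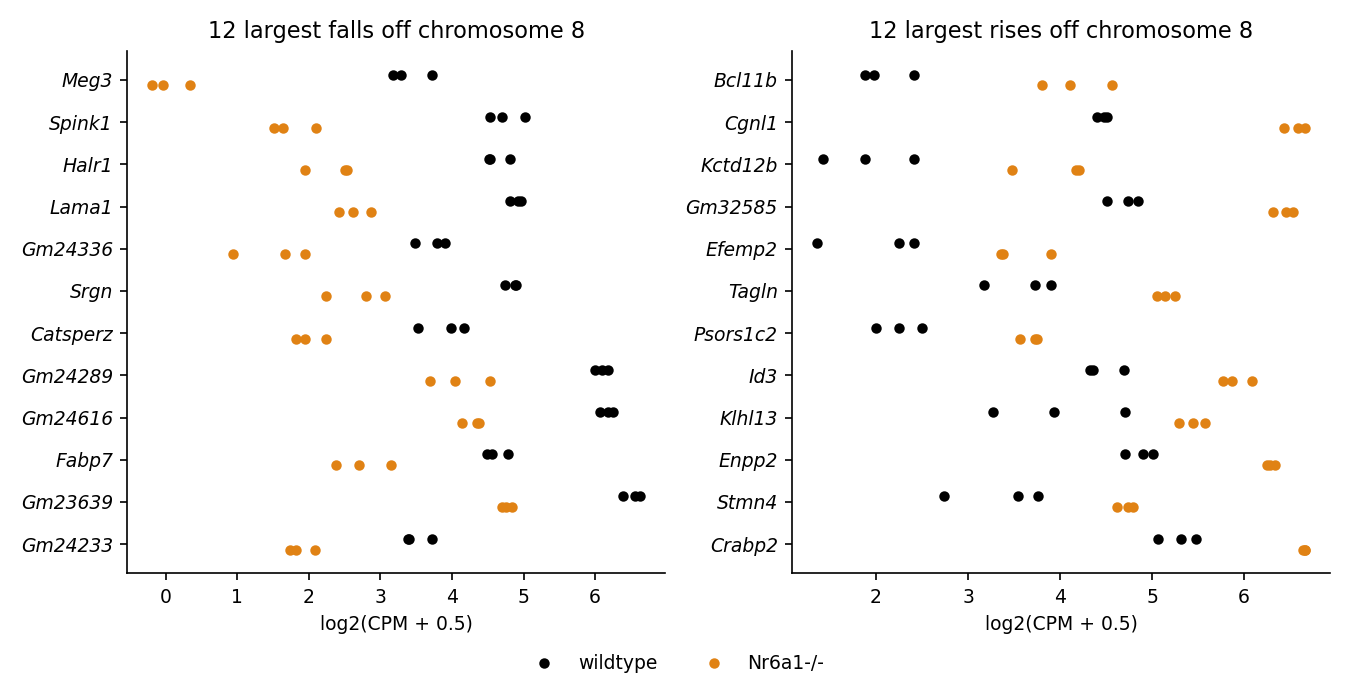
Level of the 12 largest falls (left) and 12 largest rises (right) off chromosome 8, taken from called genes that reached 10 CPM on average in 1 genotype or both and whose genotypes did not overlap, as log2(CPM + 0.5) on the horizontal axis, with 1 point for each library (black wildtype, orange Nr6a1-/-). Groups are separate because the rule asks for it; the falls reach further, from Gm24233 (-1.73) to Meg3 (-4.12), than the rises, from Crabp2 (1.37) to Bcl11b (2.18).

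Many genes of endoderm and its basement membrane were lower. The endoderm list and the lists below were chosen with earlier results of these data known, so their counts are a description. Of 20 tested genes in an endoderm list, 15 were called lower and 1 higher, beside 2.72% and 1.35% of all genes, and the median log2 fold change was -1.75, beside -0.00859 over all genes. Both collagen genes of chromosome 8 are among the 15, and the median without them was -2.03. In 16 of the 20 genes all Nr6a1-/- libraries lay below all wildtype libraries, beside 10.8% of all genes. The number called lower was 9 without Nr6a1-/- replicate 1 and 9 without Nr6a1-/- replicate 2. In such bulk samples fewer cells of a type and less RNA per cell cannot be told apart, and this holds for every list below.

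Among the transcription factors, Gata6, a primitive endoderm factor, had 6.12, 7.97 and 3.44 CPM in wildtype and 0.471, 0 and 0 CPM in Nr6a1-/- libraries. Over the group that was 1 count against 39, a ratio of 0.0244 (exact 95% interval 0.000603 to 0.144). This interval, like those of pooled counts below, covers counting error only and not the spread between libraries. Sox17 stood at 3.06, 6.9 and 5.16 against 0.471, 0 and 1.9 CPM (log2 fold change -2.54, SE 0.668, FDR 0.0194) and Gata4 at 3.5, 3.19 and 2.41 against 0, 0.374 and 1.14 CPM (-2.36, SE 0.667, FDR 0.0329). Pdgfra, the receptor that marks primitive endoderm, had 16 counts in wildtype and none in Nr6a1-/- libraries, so it was at least 5.6-fold higher in wildtype when 3 counts are allowed over the mutant group. These 4 genes are scarce in both genotypes, and the defining markers Foxa1, Afp and Cer1 had no count in any of the 6 libraries. Sox17 lost its call without any of 4 single libraries (wildtype replicates 2 and 3, Nr6a1-/- replicates 1 and 2; log2 fold change -2.49 to -1.93, FDR 0.0764 to 0.144), and Gata4 without any of 5, all but Nr6a1-/- replicate 3 (-2.52 to -1.91, FDR 0.0554 to 0.145).

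The genes of the list that follow encode matrix, secreted and endocytic proteins. Their RNA levels in wildtype were above those of the 4 genes just given, and all were lower in Nr6a1-/- libraries. Lama1, the laminin alpha chain of embryonic basement membranes (chr17:67697259-67822647), fell from 27.5, 29.7 and 30.6 CPM to 5.65, 4.87 and 6.83 CPM (log2 fold change -2.33, SE 0.224, FDR 4.47e-09). Lamb1, its beta chain partner, fell from 94, 88.7 and 89.5 to 49.9, 50.5 and 51.2 CPM (-0.84, SE 0.12, FDR 9.21e-06). Lamc1, the gamma chain, was also called lower (27.5, 32.9 and 37.9 against 22.1, 13.1 and 24.7 CPM; -0.73, SE 0.185, FDR 0.0143), except without wildtype replicate 3 or Nr6a1-/- replicate 2 (-0.59 to -0.49, FDR 0.159 to 0.198). All 3 chains of laminin-111 and both chains of type IV collagen were thus called lower. Dab2, an endocytic adaptor of the extraembryonic endoderm, stood at 34.5, 37.7 and 28.6 against 15.5, 6.74 and 8.72 CPM (-1.72, SE 0.225, FDR 1.75e-06). Spink1, a secreted protease inhibitor, was among the largest falls of genes with at least 10 CPM in 1 genotype, from 25.4, 31.9 and 22.7 to 2.35, 2.62 and 3.79 CPM (-3.13, SE 0.353, FDR 1.27e-07). No mutant library reached the wildtype range in any of these genes.

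Calls were less firm for 4 more genes of the list. Cubn, an endocytic receptor, was called except without Nr6a1-/- replicate 1 (-1.91, FDR 0.0624), and Ttr, a thyroid hormone carrier, except without wildtype replicate 1, Nr6a1-/- replicate 1 or Nr6a1-/- replicate 2 (-3.40 to -2.79, FDR 0.0516 to 0.102). Dkk1, a secreted Wnt antagonist, lost its call without any single library but wildtype replicate 3 (FDR 0.0562 to 0.212) and Sparc, a matrix glycoprotein, without any but wildtype replicate 1 (FDR 0.0513 to 0.145). Rhox5 was the member that moved the other way. This homeobox gene of the X chromosome, known from extraembryonic tissues, rose from 87.9, 79.1 and 76 to 137, 130 and 116 CPM (log2 fold change 0.65, SE 0.128, FDR 0.00106). Apoe, the most abundant member, gave 674, 603 and 616 against 596, 618 and 550 CPM and was not called (-0.10, FDR 0.591). Summed over the list, wildtype libraries held 1217 to 1293 CPM and Nr6a1-/- libraries 934 to 989 CPM.

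**Figure D4:**
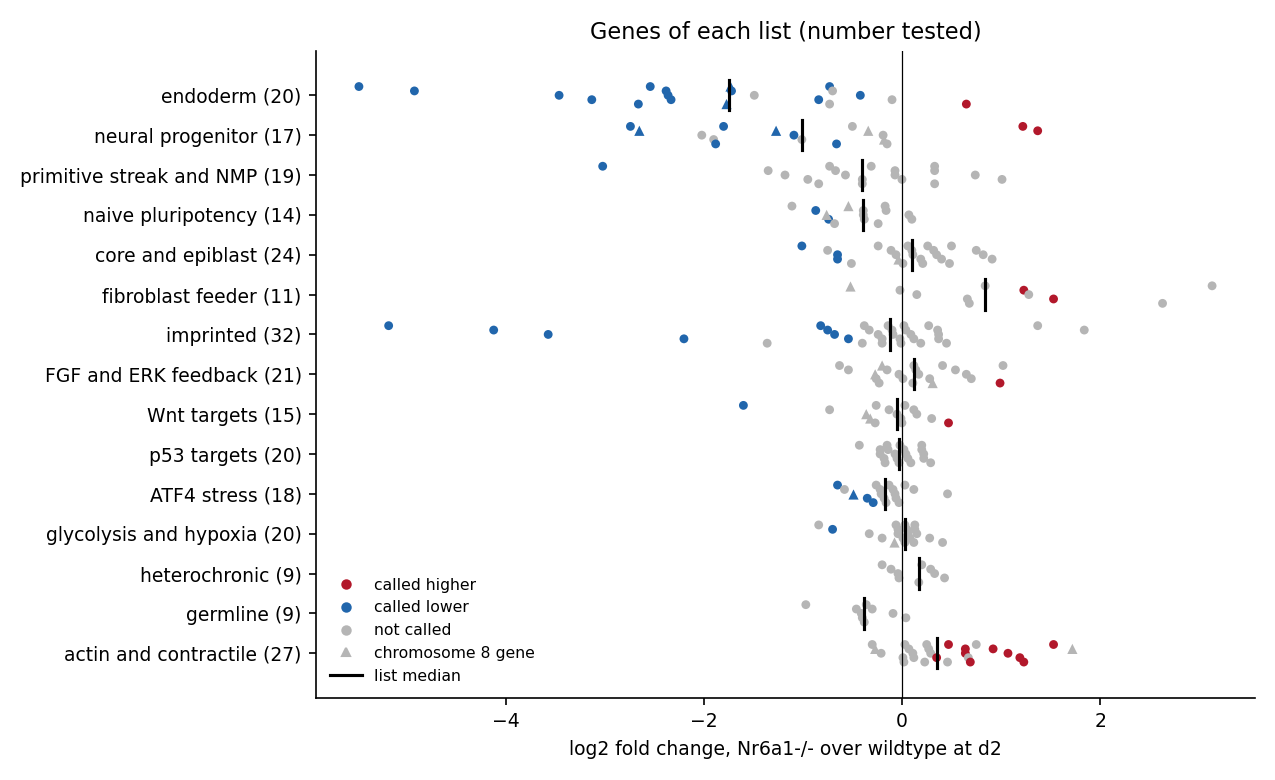
Log2 fold change of Nr6a1-/- over wildtype at d2 for every tested gene of 15 lists, with the number tested in brackets; points are genes (triangles on chromosome 8), red where called higher, blue where called lower, grey where not called, and the black bar is the list median. The endoderm and neural lists sit left of 0 with medians of -1.75 and -1.01, the p53 list is centred near 0, and the actin list, which was drawn up after its genes had been seen, sits to the right.

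Early neural genes held calls in both directions. Of 17 tested genes 7 were called lower and 2 higher, beside 2.72% and 1.35% of all genes, while 8 were not called, and the median was -1.01 (-0.66 with genes absent from 1 genotype set at their bound). Besides Sox1, the lower genes included Fabp7, a fatty acid binding protein of neural stem cells (21.9, 27.1 and 23.1 against 4.71, 5.99 and 8.34 CPM; -1.88, SE 0.264, FDR 7.00e-06). The TALE homeobox genes Meis1 and Meis2, which encode Hox cofactors, fell from 2.19, 5.84 and 6.19 to 0.471, 0.749 and 0.759 CPM (-2.74, SE 0.587, FDR 0.00308) and from 10.9, 7.44 and 8.6 to 1.88, 2.62 and 3.03 CPM (-1.80, SE 0.335, FDR 0.000497). Id2, an inhibitor of bHLH factors, fell by 0.66 (FDR 0.0079). In the remaining pair of calls, Irx5 on chromosome 8 lost its call without any single library (-1.35 to -1.21, FDR 0.0572 to 0.135) and Olig2 without wildtype replicates 2 or 3 or Nr6a1-/- replicates 1 or 2 (-1.02 to -0.95, FDR 0.15 to 0.171). By DESeq2 the number of lower calls was 4.

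The 2 neural genes that rose are also expressed beyond neural tissue. Nes, an intermediate filament gene of neural and other progenitors, rose from 97.9, 80.7 and 105 to 226, 232 and 209 CPM (log2 fold change 1.22, SE 0.14, FDR 1.70e-07). Crabp2, a retinoic acid binding protein, rose from 44.2, 32.9 and 39.2 to 99.3, 101 and 101 CPM (1.37, SE 0.137, FDR 1.01e-08). Every mutant library was at about the same level for these genes and above every wildtype library. Pax6 (20.6, 18.1 and 17.2 against 15.5, 10.5 and 13.7 CPM, FDR 0.265) and Tubb3 (FDR 0.359) were not called. Because Nes is abundant, the summed level of the list was higher in Nr6a1-/- (487 to 492 CPM) than in wildtype libraries (395 to 430 CPM), opposite in sign to its median.

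Imprinted genes, which are expressed from 1 parental allele, held the largest fall off chromosome 8 among genes with at least 10 CPM in 1 genotype and no overlap. Meg3, a maternally expressed long noncoding RNA (chr12:109541001-109571726), had 12.7, 8.5 and 9.29 CPM in wildtype and 0.471, 0.374 and 0.759 CPM in Nr6a1-/- libraries (log2 fold change -4.12, SE 0.576, FDR 6.84e-06). Pooled counts were 4 against 72, a ratio of 0.0529 (exact 95% interval 0.014 to 0.141). Rian, the noncoding RNA downstream of Meg3 in the same cluster, fell from 3.94, 5.84 and 6.19 to 0, 1.12 and 0 CPM (3 against 38 counts, ratio 0.0752, interval 0.0148 to 0.237). Dlk1, the paternally expressed gene of that cluster, was scarce in both genotypes (2.19, 2.12 and 1.03 against 0.471, 2.25 and 1.14 CPM) and was not called.

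Another maternally expressed noncoding RNA, H19 on chromosome 7, fell from 6.12, 6.9 and 6.19 to 1.41, 1.5 and 1.14 CPM (-2.20, SE 0.392, FDR 0.00033). Its partner Igf2 had 0 counts in wildtype and 1 in Nr6a1-/- libraries. On the same chromosome, the growth restraining genes Cdkn1c, a cyclin-dependent kinase inhibitor (72.1, 78.6 and 82.9 against 57, 47.9 and 41.7 CPM), and Phlda2 (139, 125 and 126 against 86.6, 75.6 and 69.8 CPM) fell by 0.68 (SE 0.131, FDR 0.000758) and 0.75 (SE 0.11, FDR 1.35e-05), while the paternally expressed Kcnq1ot1 of that domain was not called (0.02, FDR 0.967). Grb10, an inhibitor of growth factor receptors, fell by 0.54 (SE 0.0851, FDR 4.22e-05). In all, 8 of 32 tested imprinted genes were called lower and 0 higher by edgeR, beside 2.72% and 1.35% of all genes. The median over the list was -0.12, and none of the 32 lies on chromosome 8. At an unadjusted p below 0.05 edgeR had 8 lower and 4 higher, and DESeq2 called 5 lower and 0 higher.

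The 2 remaining calls in this list are paternally expressed and rest on fewer libraries. Peg10 (29.3, 36.6 and 44.4 against 27.8, 16.8 and 19.3 CPM; -0.82, FDR 0.0207) was not called without wildtype replicates 2 or 3 or Nr6a1-/- replicates 2 or 3 (FDR 0.0521 to 0.219). Nap1l5 had 13 counts in wildtype and none in Nr6a1-/- libraries, at least 4.55-fold higher in wildtype, and was not called without wildtype replicate 3 or any 1 of the Nr6a1-/- libraries (FDR 0.0562 to 0.0721). Other paternally expressed genes were not called, such as Peg3 (222, 240 and 211 against 222, 228 and 242 CPM), Mest and Impact, whose genotypes overlapped. Igf2r (-0.38, FDR 0.36), Asb4 (-0.24), Ppp1r9a (-0.10) and Ascl2 (1.37, FDR 0.249) were not called either. Calls were not counted by parental allele.

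Further falls off chromosome 8 had no list in common. Halr1, a long noncoding RNA beside the Hoxa cluster (chr6:52102949-52113684), fell from 27.5, 22.3 and 22.7 to 5.18, 3.37 and 5.31 CPM (-2.39, SE 0.272, FDR 1.49e-07). Within the cluster, Hoxa5 had 16 counts in wildtype and none in Nr6a1-/- libraries, at least 5.6-fold higher in wildtype. Of 34 tested Hox genes, 0 of them on chromosome 8, 2 were called, both lower. This is beside 2.72% of all genes and 179 of 11494 genes off chromosome 8. Of the Hox genes listed, 12 had no count at d2. Hox genes pattern the body axis and are switched on after Wnt activation, and at d2 their summed level was 16.2 to 25.8 CPM in wildtype and 7.86 to 10.4 CPM in Nr6a1-/- libraries. Srgn, a proteoglycan core protein of secretory vesicles, fell from 26.2, 29.2 and 28.9 to 4.24, 7.86 and 6.45 CPM (-2.15, SE 0.226, FDR 3.54e-08). Catsperz, which encodes a subunit of a sperm calcium channel, fell from 17.5, 15.4 and 11 to 4.24, 3.37 and 3.03 CPM (-2.03, SE 0.363, FDR 0.000341). Ctsl, a lysosomal protease, was the most abundant gene called lower off chromosome 8, at 1018, 1014 and 1019 against 708, 743 and 662 CPM (-0.53, SE 0.0798, FDR 2.29e-05). Mdk, a heparin-binding growth factor, fell by 0.34 (FDR 0.00107), and Dbi, an acyl-CoA binding protein, by 0.31 (FDR 0.0168), the latter losing its call without any single library but wildtype replicate 2 (FDR 0.0565 to 0.0958).

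Off chromosome 8 the median log2 fold change of called genes was 0.67 for rises and -0.83 for falls. Bcl11b, a zinc finger transcription factor (chr12:107910403-108003602), had the largest named rise, from 4.81, 3.19 and 3.44 to 23.1, 13.5 and 16.7 CPM (log2 fold change 2.18, SE 0.386, FDR 0.000304). Cgnl1, a protein of cell junctions (chr9:71626509-71771602), rose from 22.3, 20.7 and 21.7 to 101, 85.7 and 95.2 CPM (2.12, SE 0.161, FDR 3.72e-11). Id3, an inhibitor of bHLH factors and a BMP response gene, rose from 25.4, 19.6 and 20 to 54.1, 67.4 and 58 CPM (1.47, SE 0.183, FDR 7.41e-07), opposite to Id2. Prdx6, a peroxidase, was among the most abundant rises, at 641, 583 and 666 against 908, 963 and 932 CPM (0.57, SE 0.0769, FDR 3.52e-06). Klhl13, a ubiquitin ligase adaptor of the X chromosome, rose from 9.18, 25.5 and 14.8 to 38.6, 43.1 and 47 CPM (1.43, SE 0.227, FDR 5.54e-05), with wildtype libraries well apart from each other. Enpp2, the secreted enzyme autotaxin, gave 29.3, 25.5 and 31.7 against 75.3, 80.5 and 77 CPM, and the long noncoding RNA Gm32585 26.2, 22.3 and 28.2 against 79.1, 91.7 and 87.2 CPM. Both were called by edgeR (FDR 0.00081 and 0.000422) and not by DESeq2 (log2 fold changes 1.44 and 1.76, FDR 0.263 and 0.251), although their groups lie far apart. Both tools estimated the spread over all 10 groups and not over the d2 libraries alone.

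Other rises depended on single libraries. Kctd12b was not called without wildtype replicate 1 (log2 fold change 1.88, FDR 0.0528), Efemp2, an elastic fibre protein, not without wildtype replicate 3 (1.33, FDR 0.0679), and Stmn4, a regulator of microtubules, not without wildtype replicate 3 (1.08, FDR 0.0565). Psors1c2 lost its call without any 1 of the 6 libraries (1.37 to 1.68, FDR 0.0557 to 0.106). The abundant ferritin gene Fth1 (2086, 1982 and 1947 against 2433, 2568 and 2371 CPM; 0.29, SE 0.0761, FDR 0.0177) was not called without wildtype replicates 2 or 3 or Nr6a1-/- replicates 1 or 2 (FDR 0.0526 to 0.113), and Dynll1, a dynein light chain (836, 769 and 742 against 940, 935 and 954 CPM; 0.27, FDR 0.0227), was called in the full set and without wildtype replicate 1 but not without any other library (FDR 0.067 to 0.139). All of these kept a positive sign in each of those fits.

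Among the rises were several genes of the actin cytoskeleton, and a list of 30 such genes was drawn up after these had been seen, so its count describes them and supports nothing. Of 27 tested, 10 were called higher and 0 lower by edgeR, beside 1.35% and 2.72% of all genes, and the median was 0.35. In 15 all mutant libraries were above all wildtype libraries, beside 10.5% of all genes. At an unadjusted p below 0.05 12 were higher and 1 lower, and DESeq2 called 9 higher and 0 lower. Tagln, an actin cross-linking protein of smooth muscle (chr9:45929619-45936058), rose from 14.4, 8.5 and 12.7 to 34.8, 37.4 and 32.6 CPM (1.53, SE 0.215, FDR 7.19e-06). Cald1, which holds tropomyosin on actin filaments, rose from 105, 122 and 122 to 266, 244 and 225 CPM (1.07, SE 0.0866, FDR 1.01e-10). Tpm1, a tropomyosin, rose from 247, 227 and 228 to 371, 394 and 332 CPM (0.64, SE 0.0765, FDR 3.07e-07), and Myl9, a myosin light chain, from 39.8, 33.5 and 29.6 to 60.7, 70.8 and 61.8 CPM (0.92, SE 0.162, FDR 0.000276). Cnn2, a calponin, rose by 0.64 (FDR 0.00242). Flna, a filamin, was called except without Nr6a1-/- replicate 1 (0.40, FDR 0.0714), Myl6 except without any library but wildtype replicate 1 (FDR 0.067 to 0.118), Cnn1 except without wildtype replicate 3 or Nr6a1-/- replicate 2 (FDR 0.0688 to 0.0752), and Cyr61 except without wildtype replicates 1 or 2 or Nr6a1-/- replicates 1 or 2 (FDR 0.0512 to 0.0828). The main cytoplasmic actin gene Actb, at 5580, 8193 and 6924 against 5788, 5303 and 6763 CPM, was not called (FDR 0.643).

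Fibroblasts express many of these genes, and the ESCs had grown on fibroblasts. Of 11 tested markers of fibroblast feeders, 2 were called higher (Acta2 and Tagln, both also on the actin list), beside 1.35% of all genes. In 7 every mutant library stood above every wildtype library, beside 10.5% of all genes. The median was 0.84 (0.66 with genes absent from 1 genotype at their bound). At an unadjusted p below 0.05 edgeR had 6 higher and 0 lower, and DESeq2 called 2 higher. The summed level of the list was 61.1 to 77.1 CPM in wildtype and 114 to 128 CPM in Nr6a1-/- libraries. This sum includes Tagln (mean 11.9 against 35 CPM) and Acta2 (6.05 against 14.4 CPM). The part of fibroblasts in the rise of actin genes was not tested. Col1a1, the main collagen of fibroblasts, stood at 3.5, 1.06 and 3.79 against 4.24, 5.24 and 4.55 CPM (FDR 0.5) and Dcn at 3.5, 3.19 and 3.1 against 8.94, 5.62 and 9.48 CPM (FDR 0.0824). Neither was called, and Lum had no count. Fbln1 (0.15), Twist1 (-0.02) and Mmp2 (-0.52, on chromosome 8) were not called and overlapped between genotypes. Acta2 was not called without wildtype replicate 3 or Nr6a1-/- replicate 3 (1.11 to 1.20, FDR 0.0535 to 0.056).

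Of 24 genes of core pluripotency and the epiblast, 3 were called lower (Tdgf1 and Lefty1 among them) and 0 higher by edgeR, beside 2.72% and 1.35% of all genes tested; 10 of the 24 lay above every wildtype library, beside 10.5% of all genes tested, and the median was 0.10. At an unadjusted p below 0.05 edgeR had 5 higher, and DESeq2 called 0 higher. Tdgf1, the Nodal coreceptor Cripto, fell from 103, 116 and 107 to 56, 51.3 and 53.9 CPM (-1.01, SE 0.18, FDR 0.00033). Fgf5 gave 31, 37.7 and 27.5 against 51.3, 53.9 and 63 CPM (0.82, SE 0.284, FDR 0.103) and Dnmt3b 2383, 2401 and 2433 CPM in Nr6a1-/- libraries (0.48, SE 0.308, FDR 0.467), apart from the wildtype values but not called. The spread in these tests was estimated over all 10 groups and not over the d2 libraries alone. Pou5f1 stood at 20.6, 17.5 and 19.3 against 24, 25.1 and 22.8 CPM (0.32, SE 0.219, FDR 0.508), and processed copies of this gene could share its reads. Lefty1, a Nodal antagonist, was not called without wildtype replicates 2 or 3 or Nr6a1-/- replicates 2 or 3 (FDR 0.0649 to 0.133).

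Of 14 tested genes of naive pluripotency, 2 were called lower (beside 2.72% of all genes) and 0 higher by edgeR, and the median was -0.39. In 7 every mutant library lay below every wildtype library, beside 10.8% of all genes. At an unadjusted p below 0.05 edgeR had 6 lower and 0 higher, and DESeq2 called 3 lower. Dppa5a, an RNA-binding protein of ESCs, fell from 457, 426 and 397 to 236, 228 and 234 CPM (-0.87, SE 0.104, FDR 3.07e-07). Klf5, a zinc finger factor, stood at 48.5, 75.4 and 77.8 against 30.6, 40.8 and 48.2 CPM (-0.74, FDR 0.0193) and was not called without wildtype replicates 2 or 3 or Nr6a1-/- replicates 1 or 2 (FDR 0.0667 to 0.177). Nanog stood at 20.1, 19.6 and 25.5 against 13.7, 17.6 and 18.6 CPM and was not called (FDR 0.359). Zfp42 and Klf2 lie on chromosome 8 and were not called.

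Before Wnt activation, lists of signalling and streak genes held 1 or 2 calls each, where they held any, beside 4.07% of all genes. Axin2, the feedback inhibitor that reads out Wnt activity, fell from 10.5, 11.2 and 9.64 to 3.3, 3.37 and 3.41 CPM (log2 fold change -1.60, SE 0.276, FDR 0.000195), with no overlap between genotypes. Among the other 14 tested Wnt targets, only Tcf7l1, a repressor of Wnt targets, was called (0.47, FDR 0.0482), and it lost its call without any 1 of the 6 libraries (FDR 0.0786 to 0.153). Sp5, Lef1 and Ccnd1 differed by -0.01 to 0.03 and were not called. Of 21 genes of FGF and ERK feedback, 1 was called, beside 4.07% of all genes, Egr1, an immediate early gene, which rose from 7, 11.2 and 11 to 20.7, 18.7 and 19 CPM (0.99, SE 0.205, FDR 0.0021). Dusp6 (181, 262 and 253 against 139, 134 and 177 CPM, FDR 0.125) and Spry4 (FDR 0.0698) were not called. Cyp26a1, which degrades retinoic acid, was the 1 call among 19 tested streak and NMP genes (2.62, 2.66 and 2.41 against 0, 0 and 0.759 CPM; 2 against 18 counts, ratio 0.106, interval 0.0119 to 0.442), and it was not called without Nr6a1-/- replicates 1 or 2 (FDR 0.073 to 0.105) or by DESeq2.

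Among further lists, by edgeR and beside 4.07% of all genes called in either direction, 0 of 20 p53 targets were called (median -0.03), 0 of 9 heterochronic genes such as Lin28a and Lin28b (median 0.17), 0 of 9 germline genes (median -0.38) and 0 of 5 Wnt ligands (median -0.23), and DESeq2 called 0 in each. At an unadjusted p below 0.05 edgeR had 0 p53 targets, 4 higher and 1 lower heterochronic genes, 1 lower germline gene and 0 Wnt ligands. Of 20 genes of glycolysis and hypoxia, Pdk1, the kinase that inhibits pyruvate dehydrogenase, was the single call (95.3, 95.6 and 94.6 against 57.9, 59.2 and 58.4 CPM; -0.70, SE 0.116, FDR 0.000108). Of 18 genes of the ATF4 stress response 4 were called lower, beside 2.72% of all genes, of which Shmt2, a mitochondrial enzyme of serine metabolism, was the firmest (101, 114 and 121 against 66.4, 79.4 and 67.9 CPM; -0.65, SE 0.114, FDR 0.000264). Asns, asparagine synthetase, was not called without wildtype replicates 1 or 3 or Nr6a1-/- replicate 3 (FDR 0.0582 to 0.161). Slc3a2 lost its call without any single library but Nr6a1-/- replicate 2 (FDR 0.0559 to 0.112) and Slc7a5 without any but wildtype replicate 3 (FDR 0.0769 to 0.214), the 2 subunits of an amino acid transporter, the latter on chromosome 8. Of 8 trophoblast genes, Krt18 was called higher (0.41, FDR 0.0146), except without wildtype replicate 2 or Nr6a1-/- replicates 1 or 2 (FDR 0.0533 to 0.0899).

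A class of small RNAs held many falls. Small nucleolar RNAs (snoRNAs) and the related scaRNAs of Cajal bodies guide chemical modification of ribosomal and spliceosomal RNA. Box H/ACA RNAs direct pseudouridylation and end with the letters ACA shortly before the 3′ end, whereas box C/D RNAs direct methylation and carry the boxes TGATGA and CTGA. Most are cut out of the introns of host genes. The class was singled out after 5 of its members had met the rule for the largest falls, so its counts are a description. The sequences that follow, from the GRCm38 genome at the GENCODE release 21 coordinates, show 3 strongly lowered box H/ACA RNAs and, for contrast, the box C/D RNA Snord49b, with the ACA, or the TGATGA and CTGA boxes, in capitals.
Gm24289, scaRNA, chr9:64295931-64296065, + strand: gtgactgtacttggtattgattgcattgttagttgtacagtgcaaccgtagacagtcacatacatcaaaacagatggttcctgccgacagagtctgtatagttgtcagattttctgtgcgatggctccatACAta
Gm24616, snoRNA, chr16:23111617-23111755, + strand: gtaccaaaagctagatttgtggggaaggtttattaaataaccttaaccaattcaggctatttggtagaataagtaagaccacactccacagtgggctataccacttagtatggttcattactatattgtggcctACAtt
Gm22748, snoRNA, chr12:17546146-17546281, + strand: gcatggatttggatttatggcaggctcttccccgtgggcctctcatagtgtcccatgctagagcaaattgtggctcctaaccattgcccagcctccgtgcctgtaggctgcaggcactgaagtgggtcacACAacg
Snord49b, snoRNA, chr11:62603079-62603150, + strand: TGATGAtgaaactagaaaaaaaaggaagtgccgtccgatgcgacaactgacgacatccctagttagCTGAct

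Of 29 snoRNA and scaRNA genes tested, 17 were called lower and 0 higher by edgeR, beside 2.72% and 1.35% of all genes. The number lower was 9 by DESeq2 and 11 without Nr6a1-/- replicate 2, and at an unadjusted edgeR p below 0.05 19 were lower and 0 higher. Among the 20 that end in an ACA box, 15 were called lower and the median was -1.45. In 17 every mutant library lay below every wildtype library, beside 10.8% of all genes. Gm24289 fell from 68.2, 71.7 and 63.7 to 22.6, 12.4 and 15.9 CPM (log2 fold change -2.02, SE 0.227, FDR 1.27e-07). Gm24616 fell from 72.1, 75.9 and 66.4 to 19.8, 20.2 and 17.1 CPM (-1.90, SE 0.212, FDR 1.00e-07), and the most abundant, Gm22748, from 228, 272 and 257 to 113, 93.2 and 105 CPM (-1.28, SE 0.12, FDR 2.52e-09). Gm24336 (-2.29), Gm23639 (-1.79) and Gm24233 (-1.73) completed the members among the largest falls, and of these Gm24336 held neither set of boxes at the places searched. Some pairs are near copies, such as Gm24616 and Gm25588 (92.9% of bases matched over the longer of the pair) or Gm23639 and Gm25636 (91.7%), so that reads could be split between them. The summed level of the 20 was 760, 784 and 738 CPM in wildtype and 309, 271 and 282 CPM in Nr6a1-/- libraries.

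The hosts of these RNAs were not called. Of the 20 RNAs, 15 lie in a tested host gene, 15 different genes in all, of which 0 were called by edgeR or DESeq2 and 1 was lower at an unadjusted p below 0.05, and their median was -0.02. Gm24616 lies within Eif4a2 (-0.07), a translation initiation factor, and Gm22748 within Odc1 (0.05), the enzyme that starts polyamine synthesis. The difference between an RNA and its host was not tested. Of 5 RNAs in which C/D boxes were found, 1 was called, Snord13, from 79.6, 77 and 66.8 to 20.7, 20.6 and 21.6 CPM (-1.82, SE 0.177, FDR 5.73e-09). It lies on chromosome 8 with no tested host and remained called relative to the chromosome (-1.46, FDR 7.25e-07). Snord49b stood at 35.4, 35.6 and 45.4 against 33.4, 32.2 and 28.8 CPM (-0.32, FDR 0.708) and was not called, though its genotypes did not overlap. Snord118, Snord35a and Rnu3a held neither set of boxes at the places searched, so the C/D group may be incomplete. None of them was called (-1.88, -0.58 and -0.06), but Snord118 and Snord35a lay below every wildtype library in all mutant libraries. Rpph1, the RNA of ribonuclease P, fell from 8.31, 9.56 and 9.64 to 1.88, 1.87 and 0.759 CPM (-2.59, SE 0.375, FDR 1.20e-05) and Rn7sk, a regulator of transcription elongation, from 43.7, 46.2 and 38.5 to 21.7, 18.3 and 33 CPM (-0.80, SE 0.199, FDR 0.0131).

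Mature RNAs of these classes carry no poly(A) tail, whereas the libraries were primed on poly(A), so what was counted may be precursors, tailed molecules or internal priming. As a share of all counts, snoRNAs made up 0.0955%, 0.0938% and 0.0911% in wildtype and 0.0433%, 0.0405% and 0.0403% in Nr6a1-/- libraries. Of 14 spliceosomal snRNAs edgeR and DESeq2 called 0, with 1 lower at an unadjusted p below 0.05 (median -0.44), and the median over 10840 protein-coding genes was 0.00. The mitochondrial share, 3.92% to 4.43% in wildtype and 3.18% to 3.89% in Nr6a1-/- libraries, moved in the same direction, and the part of priming or RNA quality in these falls was not tested.

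**Figure D5:**
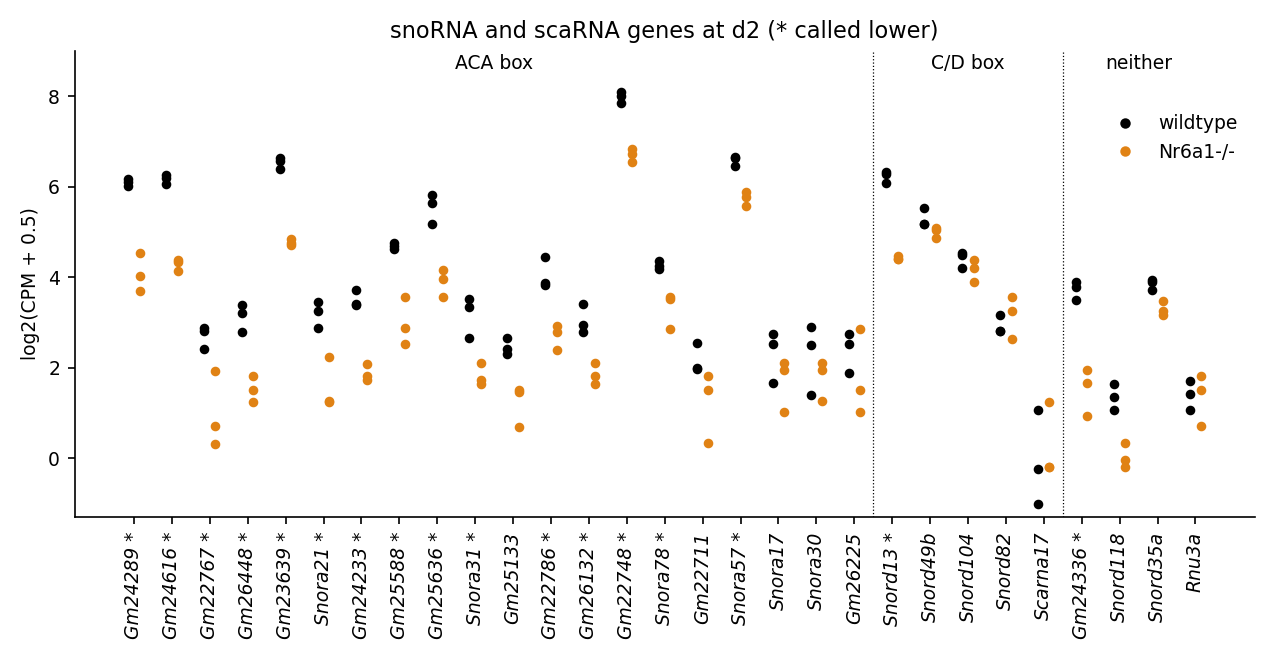
Level of 29 snoRNA and scaRNA genes as log2(CPM + 0.5) (vertical axis), 1 point per library (black wildtype, orange Nr6a1-/-), grouped by the boxes found in their sequences; an asterisk marks the 17 genes called lower. In 17 of the 20 genes with an ACA box the orange points lie below all black ones, beside 10.8% of all genes tested. Most genes in which C/D boxes were found overlap or nearly meet.

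Promoters, taken as 250 bases before to 50 after each start in RefSeq, were searched on both strands for TCAAGGTCA and for AGGTCA repeated head to tail with no gap; the first itself ends in AGGTCA and can overlap the repeat. Of 27025 promoters 126 held TCAAGGTCA (0.466%) and 1 the repeat. Among tested genes it was 23 of 8800 (0.261%) and 0. Of 130 promoters of genes called higher off chromosome 8, 1 held TCAAGGTCA (0.769%), that of Efemp2, and of 107 promoters of genes called lower and 112 of called chromosome 8 genes 0 did. No match says only that these letters are not in this window. The Efemp2 promoter is printed because it was the single match (RefSeq, GRCm38.p6, + strand, site in capitals, starting 216 bases before the start).
Efemp2, chr19:5474440-5474739: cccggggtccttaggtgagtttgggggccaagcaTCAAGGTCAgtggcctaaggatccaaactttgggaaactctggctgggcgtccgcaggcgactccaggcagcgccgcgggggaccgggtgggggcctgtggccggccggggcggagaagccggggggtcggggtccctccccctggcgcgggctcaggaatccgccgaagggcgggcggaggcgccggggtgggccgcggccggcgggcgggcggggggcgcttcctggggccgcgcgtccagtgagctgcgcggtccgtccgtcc

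Efemp2 rose at d2 from 4.81, 4.25 and 2.06 to 9.89, 9.74 and 14.4 CPM (log2 fold change 1.67, SE 0.364, FDR 0.00364), with the dependence on wildtype replicate 3 given above (1.33 and FDR 0.0679 without it). Its differences at the later stages, each from its own libraries, were 0.33 and 0.65 after 12 and 24 h of CHIR99021 and were not called; at d4 the difference was 1.75 without and 0.75 with Gdf11, and both were called.

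The d2 differences were followed through the same contrast at the later stages, d2.5 and d3 (12 and 24 h of CHIR99021), d4, and d4 with Gdf11 for 24 h (d4G). Of 164 genes called higher at d2 off chromosome 8, 47, 36, 30 and 22 were called higher at these stages in turn, beside 2.86%, 4.47%, 9.7% and 3.28% of all genes tested. As a share of the later lists off the chromosome these were 13.6%, 6.69%, 2.6% and 5.63%. Of 179 called lower, 67, 65, 56 and 40 were called lower at those stages, beside 3.59%, 6.3%, 9.18% and 4.63% of all genes. These made up 26.5%, 11.5%, 6.09% and 9.9% of the later lists. The shares of all genes, for higher and for lower calls, include chromosome 8. Off it, 3%, 4.68%, 10% and 3.4% of genes were called higher at these stages. The shares called lower off it were 2.2%, 4.92%, 8% and 3.51%. A call in the opposite direction was seen at d4 in 29 of the higher genes (17.7%, beside 8% of all genes off the chromosome called lower at d4) and in 26 of the lower genes (14.5%, beside 10% called higher). In all, 119 genes were called at d2 alone, 69 higher and 50 lower. Over chromosome 8 the median was -0.382 and -0.372 in the CHIR99021 stages and -0.293 and -0.313 at d4 without and with Gdf11.

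The same direction at all 5 stages was called for 26 genes off chromosome 8, 9 higher and 17 lower. Bcl11b was among the higher ones, with log2 fold changes of 2.18, 2.23, 3.32, 3.56 and 3.34 from d2 to d4G, as was Nes. Spink1 (-3.13, -2.92, -4.07, -5.79 and -4.44) and Srgn (-2.15, -1.64, -2.26, -1.60 and -1.21) were among the lower ones, together with Sox17, Ttr, Dab2, Sparc, H19, Dppa5a and Rpph1. On chromosome 8, Col4a1 and Gab1 were lower at every stage too, Gab1 by 1.26, 1.31, 1.46, 1.25 and 1.25. Meg3 was -4.12 at d2, -2.74 at d2.5 and -3.11 at d3, and was not called at d4 (-0.73, FDR 0.542). The small RNAs with an ACA box had medians of -0.90, -0.65, -0.42 and -0.57 at the later stages, with 4, 4, 4 and 2 called lower and 0 higher by edgeR. Lama1 was called lower up to d3 and not at d4 (-0.32, FDR 0.149), and its change of difference between d2 and d4 was 2.02 (SE 0.277, FDR 2.35e-06). Over all genes 1117 (9.19%) differed between d2 and d4 in the effect of genotype.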

How the data were processed

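RNA of 30 libraries (10 groups of 3) was primed on poly(A) and read from 3′ ends. The authors deposited raw read counts, a gene per row and a library per column. Per the labels the authors used STAR, edgeR and mm10; the aligner version, annotation, counter, use of strand and collapsing of molecular identifiers are not given in the sources used here, so copies from amplification may be included and antisense reads cannot be told apart. The authors' own tables of differing genes (log2 fold change, FDR, counts and CPM) were not used. Rows numbered 54134, of which 26 had symbols turned into dates. Columns of per-sample values matched to no sample numbered 0.

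A gene was tested if 2 or more libraries of any 1 group each exceeded both 10 counts and 2 CPM (12149 genes; 99.2% of counts in each d2 library). They were fitted as 1 model of 10 groups (20 residual degrees of freedom) in edgeR 4.0.16 under R 4.3.3 with TMM factors, glmQLFit and glmQLFTest, 2-sided, with Benjamini-Hochberg adjustment. SE was taken as |log2 fold change| over root F. CPM is TMM-scaled without a prior count. Pooled counts carry exact 95% intervals, and groups without a count a bound at 3 counts over the group. Both cover counting error only. Positions come from GENCODE release 21 (GRCm38, the build called mm10) by symbol; 97.9% of rows were placed. For chromosome 8 a second fit scaled its genes on their own counts. Scripts were tested on simulated data.

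Members and lists were chosen with earlier results of these data known. The genes named are, off chromosome 8, the 12 largest rises and 12 largest falls and, on it, the 6 largest of each, among called genes of at least 10 CPM in 1 genotype with no overlap between genotypes, plus the 6 most abundant called genes of either kind and members of the lists; no chromosome 8 rise met the rule, and some items that met a rule are not reported here. Replicates are separate libraries by label only (chi-square per gene 1.49 to 2.69 between d2 pairs), so p-values measure the spread between libraries. That spread was estimated over all 10 groups, so libraries of the later stages weigh on the d2 tests. Replicates 1, 2 and 3 of the genotypes did not deviate together (correlations 0.0284, -0.0478 and 0.0404), so they were not treated as pairs. Alternatives were RLE or no factors, TMM without chromosome 8, no filter, the d2 libraries alone, 1 library of another stage left out, a replicate block, thinning to 1 depth, each d2 library left out in turn and DESeq2 1.42.0.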

Additional observations from a re-analysis of the deposited data

Results flagged for a closer look

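The results given here were singled out because a gene was called in opposite directions at d2 and at d4 and the change of the genotype difference between these stages was itself called (d4 difference minus d2 difference on the log2 scale, in the edgeR model of all groups, FDR below 0.05). Genes were taken from those named in the report and the called members of its lists.

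Among early neural genes that were lower at d2 and higher at d4, the change was 6.12 for Fabp7 (SE 0.352, FDR 2.17e-15), 3.57 for Meis1 (SE 0.624) and 2.75 for Meis2 (SE 0.352). Fabp7 went from -1.88 at d2 to 4.24 at d4. In smaller steps the same turn was seen in Pdk1 (1.59), Peg10 (1.45), Grb10 (0.85), Mdk (0.62) and Asns (0.61).

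Among genes that were higher at d2 and lower at d4, the change was -5.68 for Enpp2 (SE 0.945), -3.90 for Stmn4 (SE 0.827), -3.35 for Cgnl1 (SE 0.239), -2.95 for Rhox5 (SE 0.19), -2.40 for Id3 (SE 0.228), -2.09 for Krt18 (SE 0.159) and -2.01 for Egr1 (SE 0.256). It was -3.41 for Cnn1 (SE 0.808), -1.41 for Tpm1 (SE 0.107) and -1.32 for Cyr61 (SE 0.27), all of the actin list, and -1.15 for Fth1 (SE 0.109). Several of these lost their d2 call without single libraries, as given in the report for Fth1, Stmn4, Krt18, Peg10 and Asns. Cnn1 did so without wildtype replicate 3 or Nr6a1-/- replicate 2 (FDR 0.0688 to 0.0752) and Cyr61 without wildtype replicates 1 or 2 or Nr6a1-/- replicates 1 or 2 (FDR 0.0512 to 0.0828).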

How the results depend on the processing

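Over 15 alternatives, 32 of the 42 genes that met the naming rule kept their direction and their call wherever a value could be had, and 58 of 93 with the called list members; 0 of these genes reversed. Leaving out 1 d2 library at a time, 299 to 385 genes were called, 195 to 274 off chromosome 8 (195 without wildtype replicate 3, 211 and 215 without Nr6a1-/- replicates 1 and 2) and 96 to 111 on it, 12 to 23 relative to the chromosome, with a chromosome 8 median of -0.387 to -0.354 and a difference in share of -1.19 to -1.12 percentage points; lower calls numbered 9 to 13 in the endoderm list, 5 to 6 in the neural list, 6 to 8 among imprinted genes and 11 to 16 among snoRNAs and scaRNAs, and 7 to 10 actin genes were higher. The d2 chromosome 8 median was -0.362 with RLE factors, -0.339 without factors and -0.242 without a filter on low counts, where genes with few counts enter. Fitting the d2 libraries alone gave 554 calls off chromosome 8 and 729 d2 genes called in all, thinning to 1 depth 367 and DESeq2 391, the last with 4 neural, 5 imprinted and 9 snoRNA and scaRNA genes lower and without calls for Dkk1, Tcf7l1, Slc7a5 and Cnn1. Without factors 44% of calls were higher, against 33.2%. A replicate block called 436 genes, 307 off and 129 on chromosome 8; the numbers do not pair the samples. Depth limits calls of scarce genes, as in the 3.12% called on chromosome 8 below 10 CPM.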
